A study of Homo sapiens with 4 samples.

Results

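The histone gene copies described here are rows of the RNA tables whose symbol is H1- followed by digits, or H2AC, H2BC, H3C or H4C followed by digits. They are 45 genes among the 13092 listed in either table. They comprise 4 genes of the linker histone H1 and, of the core histones, 11 of H2A, 13 of H2B, 8 of H3 and 9 of H4. RNA was sequenced from RKO, an established line of human colon carcinoma cells, as 1 library of cells with the genotype HADH-S overexpression and 1 of control cells with the genotype WT. HADH-S is, per the series title, a nuclear isoform of hydroxyacyl-CoA dehydrogenase, and the study asked which genes respond to it in colorectal cancer cells. The labels do not say how the overexpression was made or whether the cells are a single clone. With 1 library per condition there is no replicate check of any difference and no test between conditions. The ChIP and input libraries of the series were not analysed here.

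Chromatin is built of nucleosomes, in which DNA winds around a core of H2A, H2B, H3 and H4, with H1 on the linker between them. Most core histone protein comes from many near-identical genes that are transcribed in S phase, when newly replicated DNA has to be packaged, and whose mRNAs end in a conserved stem-loop bound by SLBP in place of a poly(A) tail. Replication-independent variants such as H3.3, H2A.Z and, among linker histones, H1-10 come from genes outside that system and carry poly(A) tails. The labels speak of mRNA library construction, and the way mRNA was selected is not given in them. H1-10 (H1x) falls under the symbol rule although it is replication-independent, so values for H1 are given with and without it.

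The core histone genes of a class have nearly the same coding sequence, and how the authors' counting divided shared reads among copies is not stated in the labels or files. Reads were therefore summed by class before the libraries were compared. The HADH-S library held 6963608 reads assigned to genes and the control 6773421. Levels are in RPKM, which is RPM, the reads scaled to a library of 1000000 assigned reads, divided by the transcript length in kilobases. Where 2 values are set against each other, the first is from the HADH-S library and the second from the control. HADH stood at 54.4 RPKM with overexpression and 26.5 RPKM without it, the direction that the label gives. Of 12 colon epithelium markers, 4 were listed (KRT18, EPCAM, CDX2 and KRT8), with a sum of 111 against 106 RPKM, and 8, among them KRT20, CDH1, VIL1 and LGR5, were listed in neither table. Of 14 markers of fibroblasts, leukocytes and endothelium, COL1A1 and LUM were listed, with 2 against 1 reads in all.

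The copies lie in gene clusters. By the RefSeq annotation of GRCh38.p14, 39 of the 45 are on chromosome 6, where 24 lie between 26020451 and 26285534 and 15 between 27132316 and 27893891. A further 5 are on chromosome 1 between 149813225 and 149887411. H1-10 is on chromosome 3 (129314771 to 129316286).

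Promoter sequence was available for 41 of the 45 copies. Within the 250 bases before the RefSeq start, the letters TATAAA, as in a TATA box, stood on either strand in 30 of the 41 (73.2%), against 11.1% of all 27305 promoters. CCAAT, the core of the CCAAT box, stood in 34 of the 41 (82.9%), against 33.0% of all. The octamer ATTTGCAT, known from H2B promoters as a binding site of POU2F1 (OCT1), stood in 10 of 13 H2B and 7 of 10 H2A promoters and in none of the H1, H3 and H4 promoters, against 1.66% of all. AAACACA, a box described in H1 promoters, stood in 3 of 4 H1 promoters (H1-2, H1-3 and H1-4, not H1-10) and in none of the other classes, against 4.95% of all. H4 promoters held the fewest of these letters, with TATAAA in 3 of 7 and CCAAT in 1 of 7. None of the 4 strings contains another, and a match describes letters only. Neighbouring H2A and H2B genes have 193 to 247 bases between them, so their windows of 250 bases are nearly the same DNA. A site there counts for both genes, so the H2A and H2B shares are not independent. They do not show which of the neighbours a site belongs to.

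**Figure D1:**
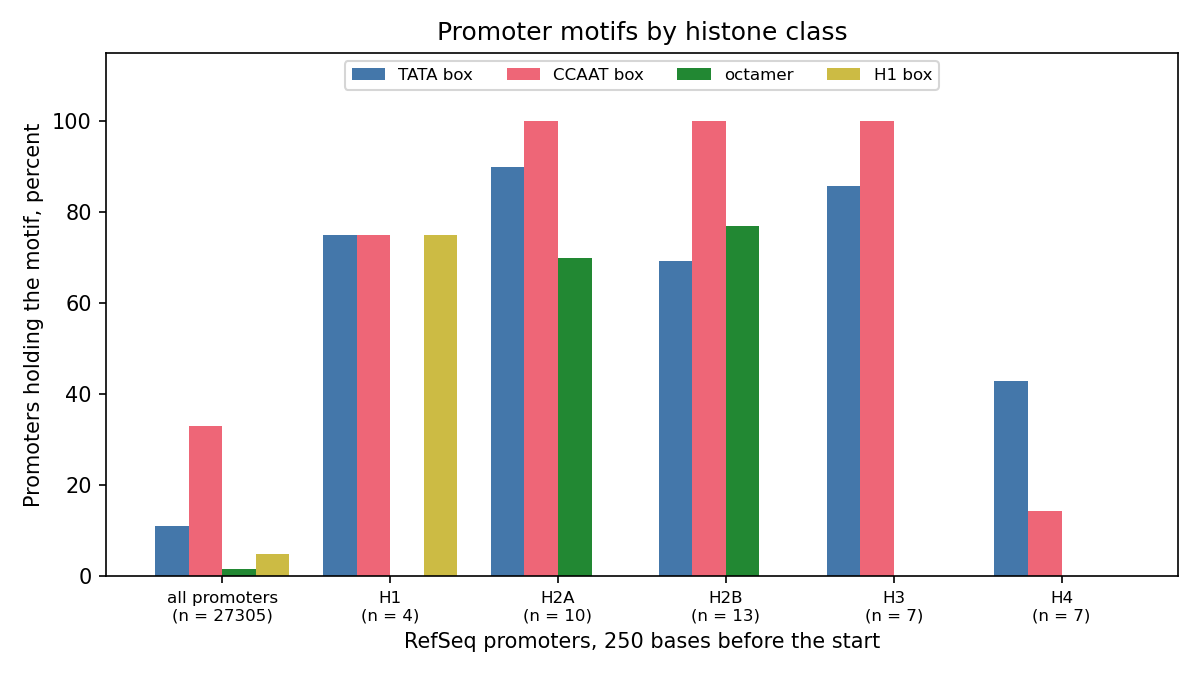
Share of RefSeq promoters (percent, vertical axis) that hold each of 4 motifs on either strand within the 250 bases before the start, for all promoters and for the copies of each histone class, with the number of promoters under each group. The octamer appears in H2A (70.0%) and H2B (76.9%) and the H1 box in H1 (75%), while the H4 bars are the lowest of the 5 classes for the CCAAT box (14.3%). Neighbouring H2A and H2B genes have nearly the same window, so a site can count for both classes.

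The 120 bases before the start are shown for the leading replication-dependent copy of each class and for copies that the results below turn on, from RefSeq with GRCh38.p14 coordinates and written 5′ to 3′ on the strand of the gene. Capitals mark the letters of these 4 motifs on either strand.
H1-2 (chr6:26056471-26056590, minus strand): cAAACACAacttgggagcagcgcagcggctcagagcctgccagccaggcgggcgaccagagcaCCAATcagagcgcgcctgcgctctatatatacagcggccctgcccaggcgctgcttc
H2AC6 (chr6:26124052-26124171, plus strand): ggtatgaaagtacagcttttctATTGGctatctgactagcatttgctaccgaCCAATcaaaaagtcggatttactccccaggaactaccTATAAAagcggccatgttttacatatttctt
H2BC12 (chr6:27146859-27146978, minus strand): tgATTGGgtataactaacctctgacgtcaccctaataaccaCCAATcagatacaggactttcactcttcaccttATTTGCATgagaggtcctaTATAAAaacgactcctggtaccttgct
H2BC21 (chr1:149886683-149886802, minus strand): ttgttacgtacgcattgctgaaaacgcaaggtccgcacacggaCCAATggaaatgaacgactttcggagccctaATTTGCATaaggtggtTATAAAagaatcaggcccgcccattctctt
H2BC9 (chr6:26251494-26251613, plus strand): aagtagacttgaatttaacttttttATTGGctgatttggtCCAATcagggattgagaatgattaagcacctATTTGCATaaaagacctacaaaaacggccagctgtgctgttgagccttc
H3C10 (chr6:27809931-27810050, plus strand): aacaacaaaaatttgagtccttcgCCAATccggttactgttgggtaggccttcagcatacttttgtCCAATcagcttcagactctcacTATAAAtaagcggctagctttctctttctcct
H4C11 (chr6:27823972-27824091, plus strand): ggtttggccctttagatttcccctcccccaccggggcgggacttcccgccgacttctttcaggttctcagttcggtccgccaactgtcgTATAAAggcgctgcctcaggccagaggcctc
H4C8 (chr6:26285535-26285654, minus strand): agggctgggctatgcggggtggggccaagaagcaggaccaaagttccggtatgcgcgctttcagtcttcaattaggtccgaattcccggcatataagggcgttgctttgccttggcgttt
In H2BC12 and H2BC21 the octamer begins 46 bases before the start and a TATA box follows it. H2BC9 has the octamer 49 bases before the start and no match to the TATA letters in this window. H4C11 carries a TATA box, and H4C8 holds none of the 4 letter strings.

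Histone reads were a small part of both libraries, and they were unevenly spread over classes and copies. The 45 copies held 2238 against 2003 reads, or 321 and 296 RPM. H1 took 48.0% of the reads of both libraries together, H2B 27.2%, H2A 14.6%, H3 5.75% and H4 4.39%. Both tables listed 36 of the 45 copies, 4 had reads with overexpression alone and 5 in the control alone. In all, 18 copies had fewer than 10 reads over both libraries, and the median copy had 15, against a median of 373 over all listed genes. The reference name table holds a further 25 genes whose symbols fit the rule and which were listed in neither table, and these were not evaluated.

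Summed by class, H4 and H2B reads were higher with HADH-S, H1, H2A and H3 had counting intervals that include 1, and the direction of H1 depended on the genes included. H4 copies held 114 reads against 72 (16.4 and 10.6 RPM). The ratio of library shares was 1.54, with an exact conditional (Clopper-Pearson) 95% interval of 1.14 to 2.10. Such an interval takes in counting error alone, and since no molecular identifiers were reported, 2 reads may stem from the same molecule. H2B copies held 639 against 516 reads (91.8 and 76.2 RPM), a ratio of 1.20 (1.07 to 1.36). H2A copies held 329 against 291 reads (47.2 and 43.0 RPM), a ratio of 1.10 (0.936 to 1.29). H3 was the class with fewer reads in the HADH-S library, 112 against 132 (16.1 and 19.5 RPM), at a ratio of 0.825 whose interval of 0.636 to 1.07 includes 1. H1 held 1044 against 992 reads (149.9 and 146 RPM), a ratio of 1.02 (0.938 to 1.12).

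Without H1-10, H1 held 407 against 467 reads, and the ratio was 0.848 (0.740 to 0.970), below 1. Without H1-2 it was 1.18 (1.05 to 1.33), above 1. Over all 45 copies the ratio was 1.09 (1.02 to 1.15), and over the 44 without H1-10 it was 1.05 (0.981 to 1.13), an interval that includes 1. The 41 core histone copies together held 1194 against 1011 reads, at a ratio of 1.15 (1.06 to 1.25). Without H2BC12 their ratio was 1.10 (0.996 to 1.21).

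**Figure D2:**
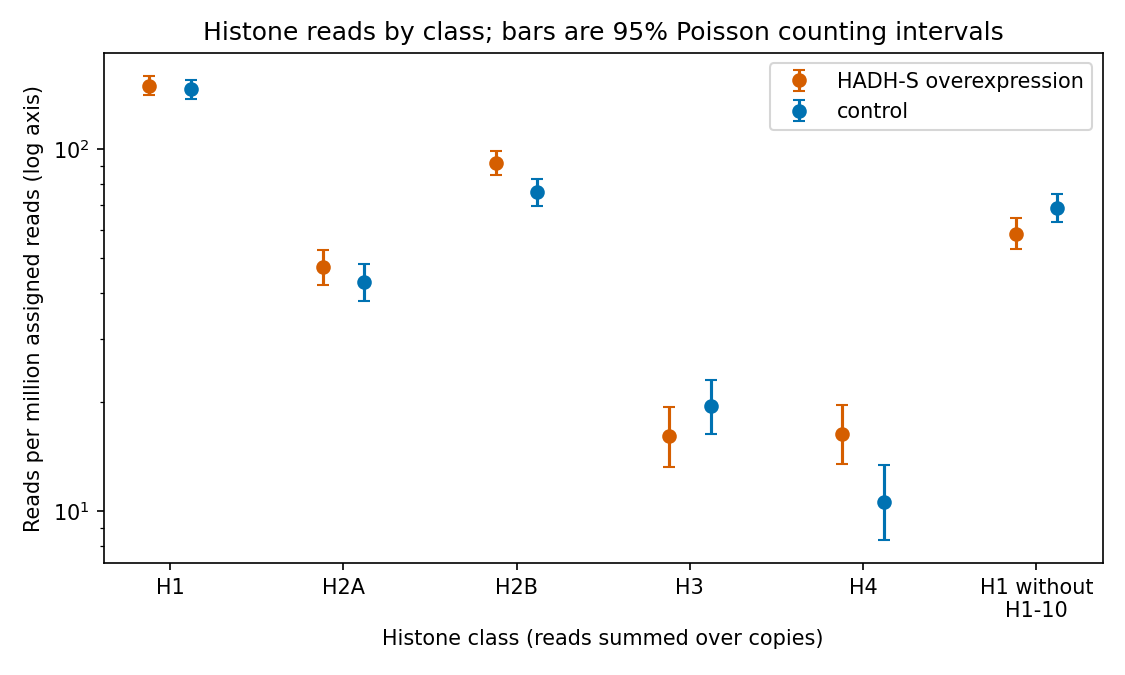
Reads in RPM (vertical log axis) summed over the copies of each histone class in the HADH-S (orange) and control (blue) library, with 95% Poisson counting intervals, 1 library each. H4 stands at 16.4 against 10.6 and H2B at 91.8 against 76.2, while H1 without H1-10 stands lower with HADH-S, at 58.4 against 68.9.

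Gene by gene, 28 of the 45 copies reached the mean of 1 RPKM over both libraries that was required for a count of differences. Since RPKM divides by transcript length, H4C1 (312 nt, 5 reads) reached this mean and H3C6 (2679 nt, 33 reads) did not. Size was measured as the log2 value of the ratio of RPKM + 1 between overexpressing and control cells, which understates the difference of low genes. By this value 19 of the 28 were above 0 and 9 below, with a median of 0.21, where 52.2% of all 10331 genes at that level were above 0 and their median was 0.01. Copies that share reads are not independent of each other, and the division of reads among copies, and so each value of a single copy, is uncertain. Counting intervals above 1 were found for 5 of the 28 copies (H1-10, H2BC12, H4C9, H4C11 and H4C15), where 13.8% of all genes had such an interval. With the libraries rescaled to the median gene there were 4, since the interval of H4C15 then reached down to 0.999, as it did to 0.990 by RPKM totals. Intervals below 1 were found for 2 of the 28 (H1-2 and H2BC9), where 11.6% of all genes did. Both counts are close to the shares over all genes. An interval excludes 1 more readily for a gene with many reads, and most copies had few, so these shares are not a like background. A log2 value of at least 1 was reached by H4C1 and H4C11, a rule of size that 0.3% of all genes met. A log2 value of -1 or lower was reached by H3C1, against 0.0484% of all genes. H4C1, H4C11 and H3C1 had 5, 14 and 8 reads over both libraries, so their size rests on few reads. H4C1 and H4C11 were below 1 RPKM in the control, and H3C1 with HADH-S. They passed the filter only through the library where they were higher, which favours a large difference. Of the copies above 0, H4C9, H2BC7 and H2BC10 passed in the same way, with 0.913, 0.864 and 0.775 RPKM in the control.

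**Figure D3:**
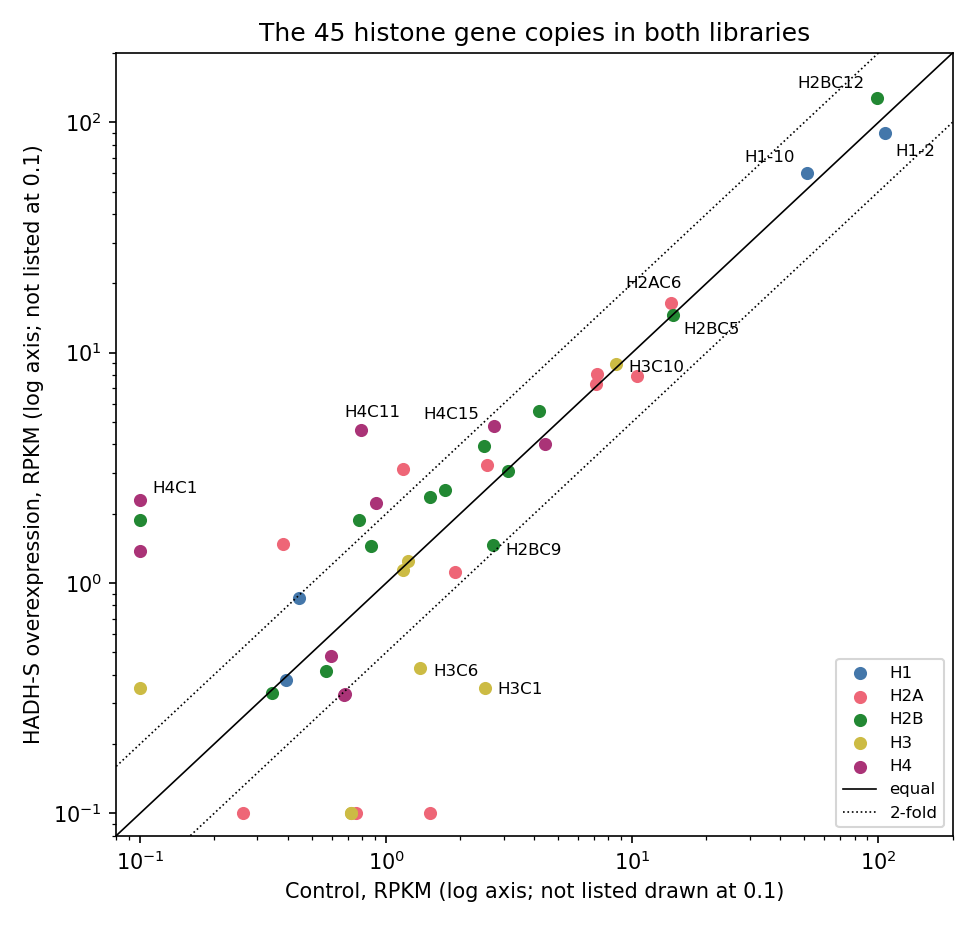
RPKM of each of the 45 copies in the control (horizontal log axis) and with HADH-S (vertical log axis), coloured by class, with lines of equality and of 2-fold difference. Genes not listed in a library are drawn at 0.1. The copies above 10 RPKM lie close to equality, and those beyond the 2-fold lines are at low levels, such as H4C11 (4.62 against 0.792) and H3C1 (0.349 against 2.51).

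The linker histone genes H1-10 and H1-2 were the best covered copies, and they went in different directions. H1-10, the replication-independent gene among them, had 637 against 525 reads (60.3 and 51.1 RPKM), a ratio of 1.18 (1.05 to 1.33), and its RefSeq span overlaps the antisense RNA H1-10-AS1. With the strand setting not stated, reads from bases that both transcripts hold cannot be told apart. RefSeq spans also overlap for H2BC5 with H2BC6-AS1 and for H2BC12 with H4C9. For H2BC5 and H2BC12 the counted transcripts are far shorter than the spans (789 nt in 13229 bases and 381 nt in 8566). For other copies the counted transcript is longer than the span, such as 1294 nt against 397 bases for H4C9 and 1654 against 519 for H2AC6. A shared span therefore does not show that reads are shared, and separate spans do not show that they are not.

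H1-2 (H1.2), a replication-dependent linker histone, had 401 against 463 reads (89.7 and 106 RPKM). Its ratio was 0.842 (0.735 to 0.965). As a share of the reads of these 4 H1 genes, which does not depend on how the libraries are scaled to each other, H1-2 made up 38.4% (exact binomial interval 35.4 to 41.4) with HADH-S and 46.7% (43.5 to 49.8) in the control. These intervals do not overlap. As a share of summed RPKM, which weights each gene per length, H1-2 made up 59.3% and 67.2%. H1-3 and H1-4, the other replication-dependent H1 genes listed, had 4 and 2 reads with HADH-S against 2 in the control for each. H1-2 therefore carried nearly all of the class once H1-10 was left out.

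H2B, which pairs with H2A in the nucleosome, was led by H2BC12 (H2BK in older nomenclature). H2BC12 had 338 against 254 reads, at 127 and 98.4 RPKM, a ratio of 1.29 (1.10 to 1.53). It made up 52.9% (48.9 to 56.8) of H2B reads with HADH-S and 49.2% (44.8 to 53.6) in the control, intervals that overlap. The table gives it a transcript of 381 nt, which holds coding sequence only, whereas its RefSeq span covers 8566 bases and includes H4C9. The other 12 H2B copies held 301 against 262 reads, and without H2BC12 the class ratio was 1.12 with an interval of 0.944 to 1.32.

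H2BC21 (H2BE) had 85 against 62 reads (5.56 and 4.17 RPKM), a ratio of 1.33 (0.950 to 1.88). H2BC5 (H2BD) had 80 against 78 reads (14.6 RPKM in both libraries), a ratio of 0.998 (0.721 to 1.38). H2BC9 had 21 against 38 reads (1.46 and 2.72 RPKM), and its ratio of 0.538 (0.300 to 0.939) made it the H2B copy with an interval below 1. H2BC7 had the highest ratio among H2B copies with at least 10 reads, 1.67 from 12 against 7 reads, and its interval includes 1. H2BC17 had 5 reads with HADH-S and was not listed in the control. Against a floor of 3 reads, a value chosen here for unlisted genes, it would be 1.62-fold higher. This is not a bound, since its exact counting interval begins at 0.891 and includes 1. The remaining 7 H2B copies had between 7 and 45 reads over both libraries and intervals that included 1.

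H2A was led by H2AC6, with 190 against 161 reads (16.5 and 14.4 RPKM), a ratio of 1.15 (0.926 to 1.43). H2AC11 had 51 against 39 reads (3.26 and 2.56 RPKM), a ratio of 1.27 (0.822 to 1.98). H2AC8 had 28 against 36 reads (7.90 and 10.4 RPKM), a ratio of 0.757 (0.445 to 1.27). No H2A copy had an interval that excluded 1. H2AC13, with 11 against 4 reads, had the highest ratio among those with at least 10 reads (2.67, interval 0.793 to 11.5). H2AC15 had 4 reads in the control and was not listed with HADH-S, H2AC4 had 2 and H2AC19 had 1. A further H2A gene, listed as H2AW and called H2AC25 in the current reference, falls outside the symbol rule. It had 163 against 95 reads, and with it included the H2A ratio was 1.24 (1.08 to 1.42).

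H2A and H2B genes often lie head to head and share the DNA between their starts. There were 8 such H2A and H2B neighbours among the listed copies, with 193 to 247 bases between the RefSeq spans, and for 7 of them the promoter table gives opposite strands that point apart (the strand of H2AC12 was not in it). Neighbours could differ widely in reads. H2BC12 had 592 reads over both libraries and its neighbour H2AC12 had 8. In the opposite sense, H2AC6 had 351 and its neighbour H2BC4 had 28. H2BC21 had 147 and H2AC20 had 41, while H2AC8 and H2BC8 were closer, at 64 and 45. The H2A gene had more reads in 5 pairs and the H2B gene in 3.

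H3 reads came mostly from H3C10, with 77 against 72 reads (8.94 and 8.59 RPKM), a ratio of 1.04 (0.744 to 1.45). H3C8 had 21 against 20 reads (1.25 and 1.22 RPKM), a ratio of 1.02 (0.527 to 1.99). The lower sum of the class came from low copies. H3C6 had 8 against 25 reads (0.429 and 1.38 RPKM), a ratio of 0.311 (0.121 to 0.712), and did not reach a mean of 1 RPKM. H3C1 had 1 read against 7 (0.349 and 2.51 RPKM), a ratio of 0.139 with an interval of 0.00308 to 1.08. Without H3C10 the H3 ratio was 0.567 (0.363 to 0.875), and without H3C6 it was 0.945 (0.715 to 1.25). Of the other copies, H3C2 had 4 reads in each library, H3C12 and H3C13 had 2 each in the control only, and H3C7 had 1 with HADH-S only.

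H4, the most conserved of the histones, had the fewest reads over both libraries and the highest class ratio. H4C15 had 38 against 21 reads (4.82 and 2.74 RPKM), a ratio of 1.76 (1.01 to 3.16). Its RefSeq span of 16753 bases includes the histone genes H2AC19 and H3C15. H4C9, which lies within the span of H2BC12, had 20 against 8 reads (2.22 and 0.913 RPKM), a ratio of 2.43 (1.03 to 6.38). H4C11 had 12 against 2 reads (4.62 and 0.792 RPKM), and its ratio of 5.84 had an interval that reached up to 53.7 and down to 1.30.

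H4C8, the H4 copy with the most reads over both libraries (60, with 59 for H4C15), did not share this direction. It had 29 against 31 reads (4.03 and 4.43 RPKM), a ratio of 0.910 (0.529 to 1.56). H4C5 had 5 against 6 reads, a ratio of 0.811 (0.196 to 3.19). H4C1 had 5 reads with HADH-S and was not listed in the control. Against the same chosen floor of 3 reads it would be 1.62-fold higher, but its interval also begins at 0.891 and includes 1. H4C4 had 3 reads against 0. When each H4 copy was left out in turn, the class ratio lay between 1.42 (without H4C11) and 2.02 (without H4C8). At the main scaling all 9 intervals stayed above 1, the lowest bound being 1.003 without H4C15. That bound is smaller than the rescaling factors of 1.008 by the median gene and 1.017 by RPKM totals. With either rescaling the interval without H4C15 would include 1. A further H4 gene, listed as H4-16 and called H4C16 in the current reference, falls outside the symbol rule. It had 3 against 6 reads, and with it included the H4 ratio was 1.46 (1.09 to 1.97).

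**Figure D4:**
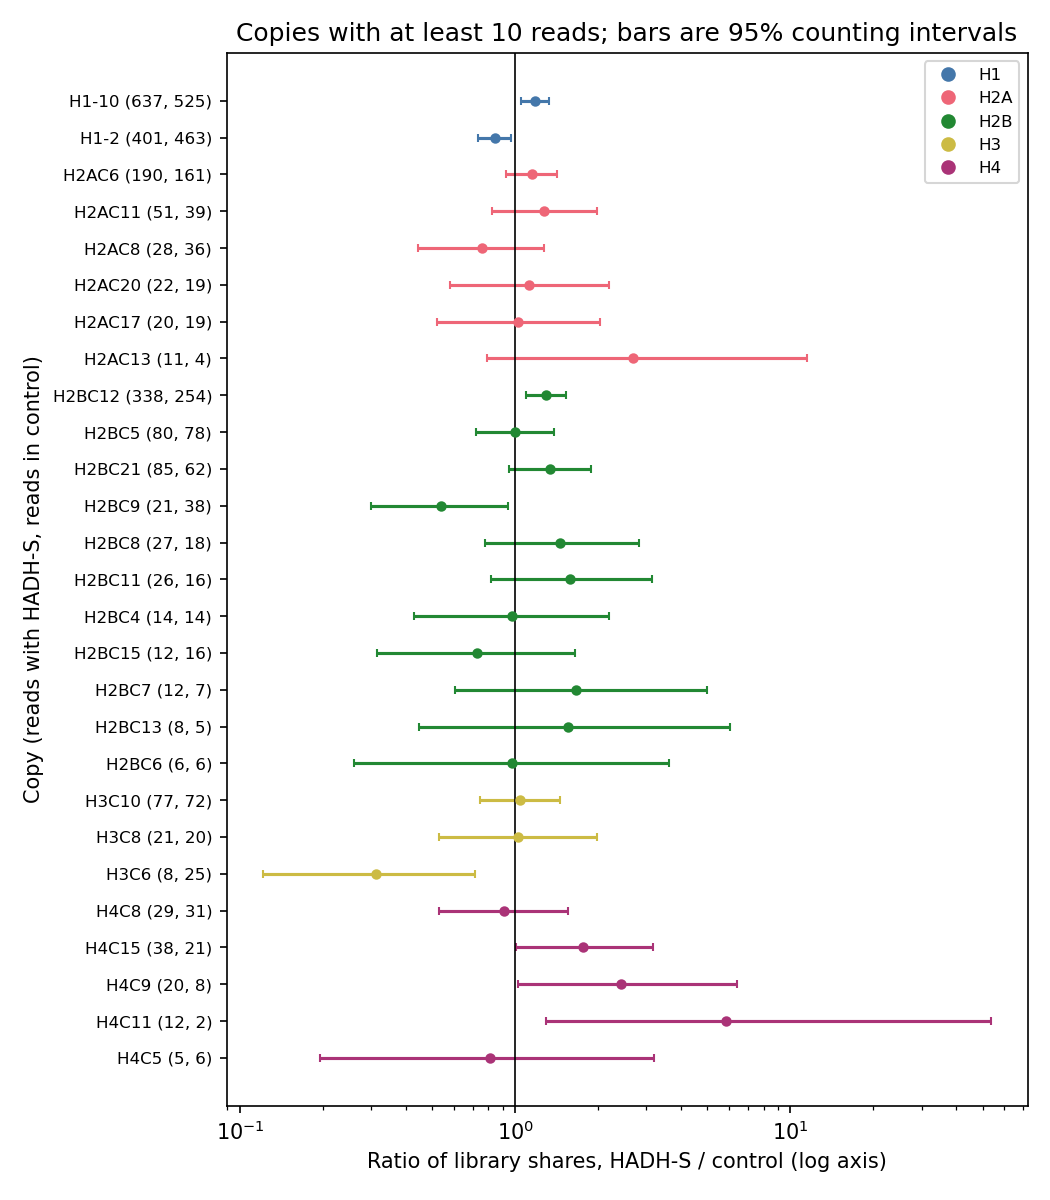
Ratio of library shares, HADH-S over control (horizontal log axis), with 95% counting intervals for the 27 copies with at least 10 reads over both libraries, coloured by class and labelled with the reads in each library. H1-10, H2BC12, H4C15, H4C9 and H4C11 have intervals right of 1, and H1-2, H2BC9 and H3C6 have intervals left of 1.

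**Figure D5:**
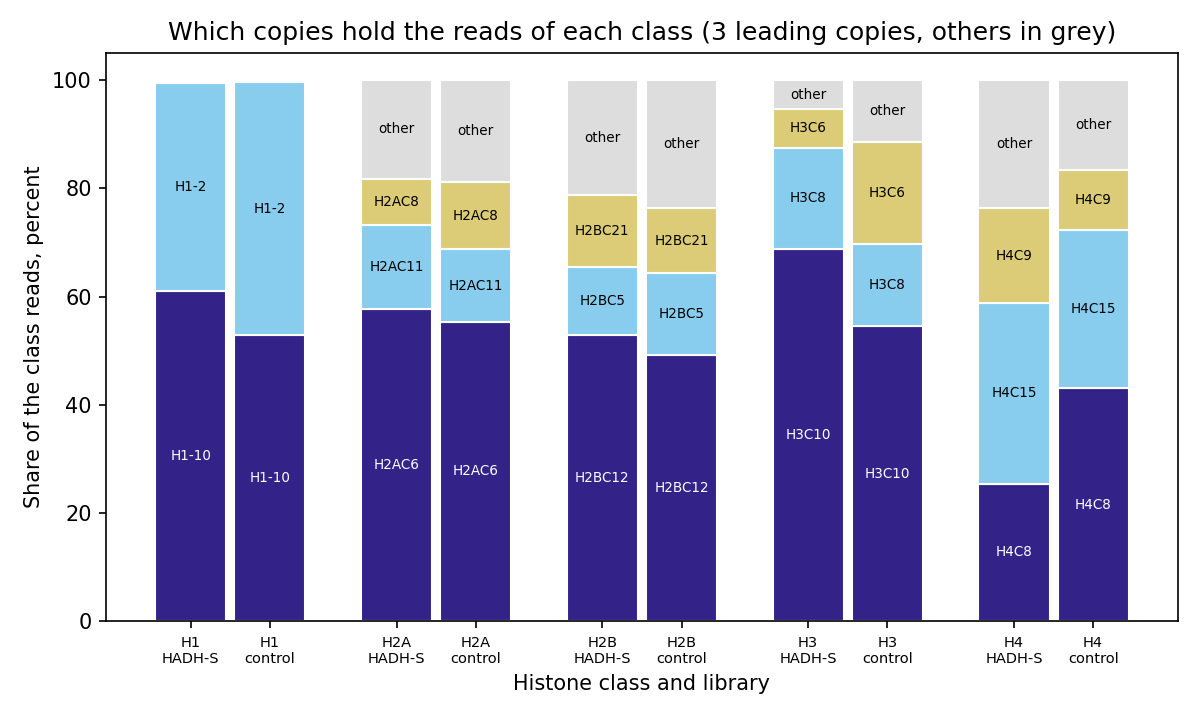
Share of the reads of each class (percent, vertical axis) held by its 3 leading copies and by the others (grey), in each library. The slices of H1-3 and H1-4 are too thin to see, H1-2 takes 38.4% against 46.7% of H1 reads, and H3C6 takes 7.14% against 18.9% of H3 reads.

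The copies were also compared by position and gene structure. On chromosome 6 the 24 copies of the first group held 869 against 926 reads, a ratio of 0.913 (0.831 to 1.002), and the 15 of the second group held 587 against 447, a ratio of 1.28 (1.13 to 1.45). H1-2 lies in the first group and H2BC12 in the second, and they lead the reads of their groups. Without these 2 genes the groups held 468 against 463 reads, a ratio of 0.983 (0.863 to 1.12), and 249 against 193 reads, a ratio of 1.25 (1.04 to 1.52). The 5 copies on chromosome 1 held 145 against 105 reads, a ratio of 1.34 (1.04 to 1.74). Among core histones, the 6 copies with a RefSeq span over 1000 bases (H2BC12, H2BC5, H2BC21, H2BC4, H3C6 and H4C15) held 46.1% of the core reads, with a median of 103 reads a copy. The other 35 had a median of 12. The limit of 1000 bases was chosen after the values were seen. In the shorter set, H2AC11 has a counted transcript of 2250 nt against a span of 493 bases, so span is not the length counted. Ratios for these sets were 1.21 (1.06 to 1.37) and 1.10 (0.982 to 1.24), intervals that overlap. With the H1 genes added, H1-10 to the longer set and the other 3 to the shorter, the ratios were 1.19 (1.09 to 1.30) over 7 copies and 0.986 (0.904 to 1.08) over 38. These intervals do not overlap, but H1-10 and H2BC12 lead the longer set and H1-2 leads the shorter. Each of these genes has an interval that excludes 1 by itself, in the direction of its set. Ratios of the sets without them were not computed, so the contrast cannot be credited to span.

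Other genes of the histone system had list medians near 0 on the log2 scale. Of 10 listed genes chosen as replication-independent histone variants, 9 had a mean of at least 1 RPKM. The exception was H2BU1, with 4 reads in each library, which is called H2BC26 in the current reference and was added to H2B as an alternative. Of the 9, the intervals lay above 1 for 1 (H1-10, which is also among the 45) and below 1 for 2 (H3-3A and H3-3B), with a median log2 value of 0.05. Over all genes evaluated, 13.8% had an interval above 1 and 11.6% had one below. H2AZ1, the main H2A.Z gene, stood at 659 against 669 RPKM, above every one of the 45 copies per length. H3-3B, which encodes H3.3, stood at 298 against 315 (ratio 0.948, interval 0.914 to 0.984). MACROH2A2, a variant with a large macro domain, stood at 22.4 against 25.4 (ratio 0.882, interval 0.752 to 1.03), and CENPA, the centromeric H3 variant, at 16.6 against 14.8 (ratio 1.13, interval 0.892 to 1.42). H2AZ1 and H3-3B were picked with their values in view.

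Of 35 genes of histone mRNA transcription and 3′ end processing, the interval lay above 1 for 7 and below 1 for 5. The shares over all genes were 13.8% and 11.6%. The median log2 value of the 35 was -0.06. UPF1, a helicase that takes part in histone mRNA decay, was at 29.7 RPKM against 22.3 (ratio 1.33, interval 1.22 to 1.46). ZNF473, which binds the processing complex with SLBP, was at 7.05 against 5.57 (ratio 1.27, interval 1.04 to 1.55). SYMPK, the scaffold symplekin, was at 13.0 against 10.5 (ratio 1.25, interval 1.06 to 1.46). SLBP itself stood at 65.9 against 71.2 RPKM (ratio 0.926, interval 0.837 to 1.02) and NPAT, the coactivator of histone gene transcription in S phase, at 8.25 against 8.65 (ratio 0.954, interval 0.821 to 1.11). Both were chosen after their values were seen.

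Of 27 histone chaperone and assembly genes, the interval lay above 1 for 3 and below 1 for 6, with a median log2 value of 0.00. Over all genes the shares were 13.8% and 11.6%. ATRX, which deposits H3.3 together with DAXX, was at 7.82 against 10.5 RPKM (ratio 0.745, interval 0.669 to 0.829). HAT1, which acetylates new H4, was at 109.9 against 128 (ratio 0.862, interval 0.798 to 0.931), and TONSL, a reader of newly made H4, at 23.3 against 19.6 (ratio 1.19, interval 1.06 to 1.32). Of 34 genes of S phase and the G1/S transition, the interval lay above 1 for 3 and below 1 for 3, against the same shares over all genes. Their median log2 value was 0.00. The replication licensing factor CDT1 stood at 20.5 against 16.4 RPKM (ratio 1.25, interval 1.07 to 1.46) and the thymidine kinase TK1 at 51.1 against 43.5 (ratio 1.18, interval 1.04 to 1.33). GINS1, a subunit of the replicative helicase, stood at 25.7 against 30.0 RPKM (ratio 0.856, interval 0.765 to 0.957). No gene of these 4 lists reached a log2 value of 1 or -1, which 0.3% and 0.0484% of all genes did. The mitochondrial transcripts MT-CO1, MT-CO2 and MT-ATP6, the 3 of 13 genes listed that had been chosen as signs of RNA quality, had ratios of 0.996, 1.07 and 1.01.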

How the data were processed

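RNA from 2 RKO libraries was analysed, 1 per condition. The authors deposited 1 RPKM value per gene and library, per the file headers. A row names the gene by symbol and Ensembl identifiers and gives its coding bounds and transcript length. Per the submitters' processing notes, shared by all samples, fastp 0.23.2, SAMtools 1.9 and GRCh38 were used. The RNA aligner, counter, strand setting and treatment of multiply mapped reads are not stated in these sources.

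RPKM times transcript length gave whole reads for 100% of values within 0.01 reads, and the recovered reads add up to the library totals. Genes without a read are not listed, and a gene listed in 1 table was taken as 0 in the other. Ratios of library shares carry exact conditional (Clopper-Pearson) 95% intervals, which cover counting error only, and no p-value is given. A count of differences used genes with a mean of at least 1 RPKM and log2((RPKM + 1)/(RPKM + 1)) of at least 1 or at most -1. Members, lists and named genes were chosen with earlier results of these data known. Named were, per class, the 3 copies with most reads, copies with at least 10 reads and an interval excluding 1 or the highest or lowest ratio, H4C1, H4C11 and H3C1, and per list the 3 genes with the largest absolute log2 value. Genes outside this rule are mentioned to account for every copy or to describe neighbouring genes. Of the 45 symbols, 44 equal those of the reference name table. A gene that the symbol rule also selects is not reported here and enters no sum. Protein sequences were not used here. Steps were tested on simulated reads. Python 3.11.15, pandas 2.3.3 and SciPy 1.17.1 were used. Alternatives were other scalings, pseudocounts, filters and folds, RPKM sums and sets of copies.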

Additional observations from a re-analysis of the deposited data

How the results depend on the processing

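No paired analysis was possible because each condition had 1 library, and for the same reason no replicate could be left out. Rescaling the libraries by the median gene, the 75th percentile or the RPKM total moved class ratios by at most a factor of 1.02 and left every named copy with an interval excluding 1 on its side of 1, but the interval of H4C15 then included 1 by the median gene (0.999) and the RPKM total (0.990), and copies with an interval above 1 fell from 5 to 4 by the median gene. The H1 ratio of 1.02 moved to 0.848 without H1-10, its copy with the most reads and the lowest value with each copy left out in turn, and was highest, 1.18, without H1-2. With RPKM summed over copies it was 0.955. RPKM gives more weight to H1-2 by construction, since its transcript is shorter. The H3 ratio moved from 0.825 to 0.567 without H3C10, its most abundant copy, which is also the lowest value with each copy left out in turn. Leaving out each copy in turn, adding current symbols and shares of RPKM were chosen after the data were seen.

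Of the copies, 2 were higher and 1 lower by size. Pseudocount 0.1 made 5 higher, and pseudocount 5 left 0 higher and 0 lower. A fold of 1.5 gave 6 higher and 2 lower, and dropping the filter gave 4 and 2. Without the filter, 5 copies had an interval above 1 and 3 had one below, H3C6 being added. Shares over all genes are not given at these alternative settings, so these counts have no background beside them. Requiring a mean of 5 RPKM left 0 higher and 0 lower. Under that requirement, copies with an interval above 1 fell from 5 to 2 and those below from 2 to 1, since fewer copies are evaluated. Among H3 and H4 copies that passed the size rule or had an interval excluding 1, H4C15 had the most reads, 59 over both libraries.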
